A study of Sus scrofa with 6 samples.

Results

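CircRNAs are closed loops of RNA made when a downstream splice donor is joined backwards to an upstream splice acceptor, so that each circRNA is recognised by reads across its back-splice junction. The circRNAs described here came from NECTIN3 and DLG1, host genes of proteins of cell-cell junctions. They were chosen as every row of the deposited circRNA table with one of these host gene names, which gave 16 of 4350 circRNAs, 4 from NECTIN3 and 12 from DLG1. The host genes had been selected on measured values of these libraries, the back-splice read counts compared between the ages, so all values of that contrast are a description of these libraries and not independent evidence.

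Testis RNA of Landrace boars was compared between Young_D30, 3 piglets at post natal day 30, and Adult_D210, 3 sexually mature boars at post natal day 210, to describe circRNAs before and after sexual maturity. Each library was made from testis of a different boar, and the study took one testis per animal. In all 6 libraries ribosomal RNA had been depleted and linear RNA digested with RNase R. As whole testis was used, fewer cells of a type and less circRNA per cell cannot be told apart. The table analysed here held 2552 exonic and 1798 intronic circRNAs, and every exonic circRNA in it had at least 1 read in Young_D30 replicate 1. Any exonic circRNAs of the 2 host genes without a read in that library were not analysed here. Libraries held 12701 to 33091 back-splice reads of the table, from 37364412 to 49179118 mapped reads, and Young_D30 replicate 1 had the most back-splice reads. Of the host genes listed as cell type markers, 1 of 8 for spermatogonia, 3 of 12 for spermatocytes, 2 of 12 for spermatids, 1 of 7 for Sertoli cells, 2 of 6 for Leydig cells and 1 of 5 for peritubular and endothelial cells had a circRNA in the table. Linear mRNA was not measured in these libraries, so the tissue could not be checked here by its markers. The paper describes the histology of the testis at both ages. The summed reads of these hosts were 4 in Young_D30 and 0 in Adult_D210 for spermatogonia (KIT), 57 and 27 for spermatocytes, 20 and 116 for spermatids (ACRV1 and IQCG), 8 and 0 for Sertoli cells (GATA4), 22 and 42 for Leydig cells, and 1 and 0 for peritubular and endothelial cells. Exonic circRNAs came from 1 of these hosts for spermatocytes, 1 for spermatids and 0 for each other type, whose reads were all intronic. The spermatocyte sum was higher in piglets, although the paper states that spermatocytes were absent from the young testis. These sums are therefore not read as amounts of a cell type. The part of cell makeup in the differences between the ages was not tested.

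NECTIN3 encodes a nectin, an adhesion molecule with immunoglobulin-like domains that binds nectins of the neighbouring cell and is tied to actin through afadin. In the testis, nectin-3 of the spermatid is known to pair with nectin-2 of the Sertoli cell at the apical ectoplasmic specialization, the junction that holds elongating spermatids. The paper calls spermatogonia the only germ cells of the young testis, although it also lists spermatids among the cells seen there. The role of nectin-3 is therefore background and does not place the piglet reads. DLG1 encodes a scaffold of the MAGUK family with PDZ, SH3 and guanylate kinase-like domains, which acts with Scribble in the polarity module at the basolateral membrane of epithelia.

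All 4 NECTIN3 circRNAs began at the same splice acceptor, on the plus strand of chromosome 13 of the pig assembly Sscrofa10.2. With the fewest exons, circRNA11894 (chr13:158525065-158533870) had 3. The next exon, of 118 nt, was added in circRNA11895 (chr13:158525065-158537462, 4 exons), and a further exon of 152 nt in circRNA11896 (chr13:158525065-158542736, 5 exons). The longest span was that of circRNA11897 (chr13:158525065-158563363, 6 exons), which is annotated on another transcript, in which its first exon has no upstream intron listed. The 4 circRNAs are thus nested loops that share their start and differ in the donor used. Of the 45 host genes with exactly 4 exonic circRNAs, 6 had one acceptor in common for all of them. The intron upstream of the shared acceptor was 533 nt long in the transcript of the other 3 circRNAs, and 3.83% of the 2532 exonic circRNAs with an upstream intron listed had one no longer than that. The introns downstream of the 4 donors ran from 3474 to 39184 nt, with a median of 5877.5 nt, against a median of 5057 nt over the exonic circRNAs of the table. For these background values the flanking intron listed first was taken as upstream and the other as downstream, whatever the strand. Whether the listed order follows the strand was not checked.

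The 11 exonic DLG1 circRNAs, also on the plus strand of chromosome 13, used 8 acceptors and 6 donors. Most of them fell into 2 groups on either side of a single intron of 10763 nt. Upstream of it, circRNA11711 (chr13:142522109-142551946, 7 exons), circRNA11713 (chr13:142537295-142551946, 6 exons), circRNA11714 (chr13:142543675-142551946, 5 exons) and circRNA11715 (chr13:142548379-142551946, 3 exons) ended at the same donor. Downstream of it, circRNA11716 (chr13:142562710-142567802, 2 exons), circRNA11717 (chr13:142562710-142584123, 3 exons) and circRNA11718 (chr13:142562710-142600017, 4 exons) began at the same acceptor, each taking in 1 exon more than the last. The exon added in circRNA11717 was 103 nt long. In the table, circRNA11718 is annotated on another transcript than circRNA11716 and circRNA11717. The acceptor group held 489 of the 596 exonic DLG1 reads and the donor group 95. The other 4 exonic circRNAs had 1 to 5 reads each. The intronic ciRNA1062 (chr13:142628683-142628939, span 257 nt) rested on 1 read, in Young_D30 replicate 3.

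**Figure D1:**
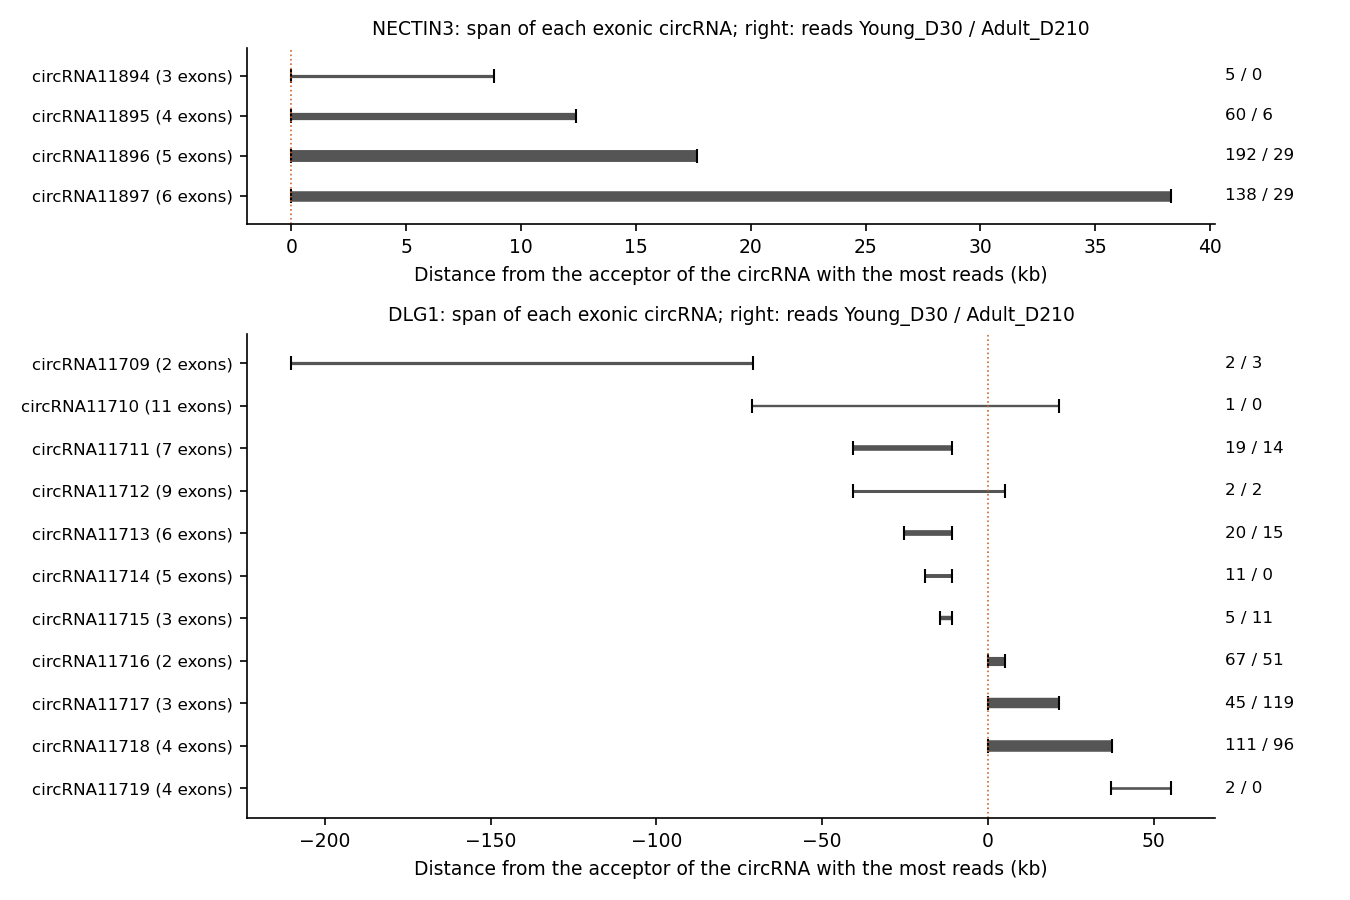
Span of each exonic circRNA of NECTIN3 (top) and DLG1 (bottom) as distance in kb from the acceptor of the circRNA with the most reads (dotted line), drawn thicker with more reads and ticked at the acceptor and donor. The numbers at the right are the reads of the 3 Young_D30 and the 3 Adult_D210 libraries; the 4 NECTIN3 circRNAs share their start, and the DLG1 circRNAs with most reads start together at the dotted line.

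The 16 circRNAs had 1056 back-splice reads in all. By reads, DLG1 (596 exonic reads) stood 47th and NECTIN3 (459) 62nd among the 659 host genes of exonic circRNAs. A filter of at least 10 reads over the 6 libraries was passed by 3 of the 4 NECTIN3 circRNAs and 7 of the 12 DLG1 circRNAs. Levels are given as SRPBM, the authors' unit, back-splice reads scaled to sequencing depth (mapped reads) and divided by read length. Each circRNA has a single junction, so its length does not enter the unit. A count of 0 in a library allows up to 3 reads by counting error alone.

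In Young_D30 the highest level among the 16 belonged to circRNA11896, at 10.3 ± 3.89 SRPBM (SD, n = 3), followed by circRNA11897 at 7.34 ± 0.95 and circRNA11718 at 5.97 ± 0.94. After these came circRNA11716 at 3.58 ± 0.94, circRNA11895 at 3.18 ± 0.74 and circRNA11717 at 2.40 ± 0.24 SRPBM. The libraries of each neighbouring pair in this order overlapped, with the exception of circRNA11718, whose lowest piglet library (4.89) lay above the highest of circRNA11716 (4.61). In Adult_D210 the order differed. The highest was circRNA11717 at 5.65 ± 1.80 SRPBM (SD, n = 3), then circRNA11718 at 4.51 ± 2.56, circRNA11716 (4.88, 0.824 and 1.37 in the 3 libraries), circRNA11897 at 1.44 ± 0.61 and circRNA11896 (1.49, 1.81 and 0.956), with overlapping libraries between neighbours. By mean level, circRNA11896 stood 65th of the 2552 exonic circRNAs in Young_D30 and 325th in Adult_D210, whereas circRNA11717 stood 316th and 70th.

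**Figure D2:**
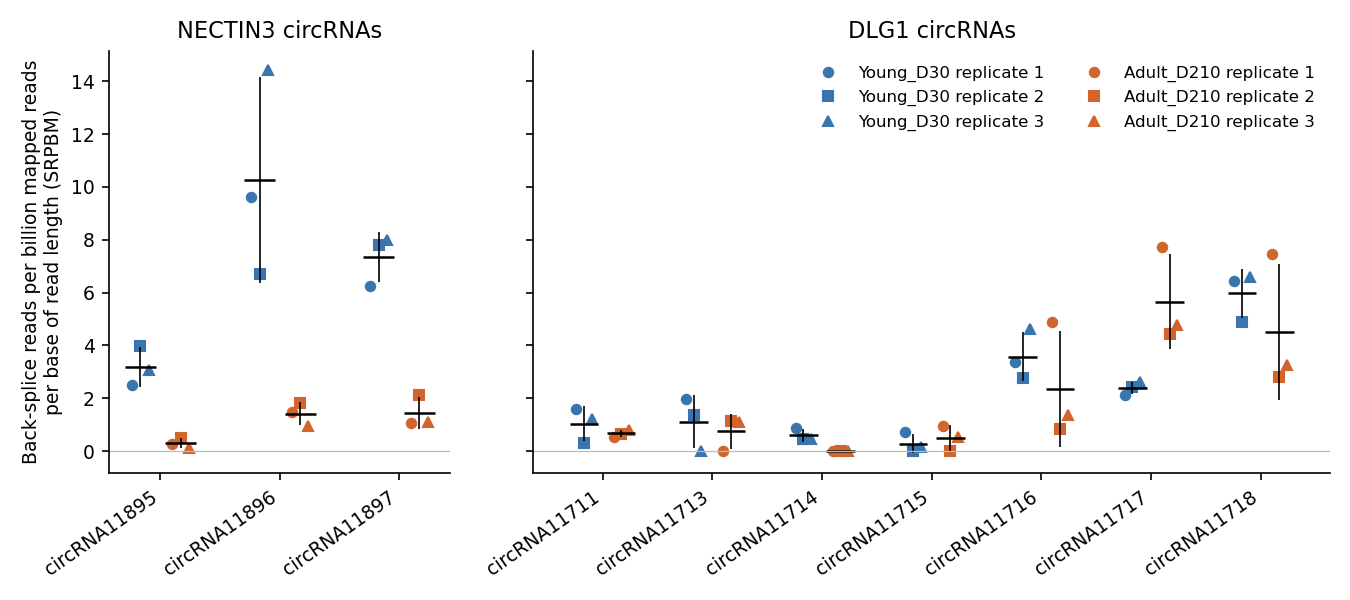
Level of each circRNA with at least 10 reads, in SRPBM (back-splice reads scaled by mapped reads and read length), with one point per library, the mean as a horizontal bar and the SD (n = 3) as a vertical bar. Every Adult_D210 library lies below every Young_D30 library for the 3 NECTIN3 circRNAs and for circRNA11714, every adult library lies above for circRNA11717, and the other DLG1 circRNAs overlap.

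The adhesion molecule gave the larger difference between the ages. NECTIN3 reads summed over its 4 circRNAs were 104, 121 and 170 in the Young_D30 libraries and 21, 27 and 16 in the Adult_D210 libraries. In SRPBM this was 21.0 ± 4.37 (SD, n = 3) against 3.16 ± 1.16 (SD, n = 3), a ratio of 6.66 of the young to the adult mean, and the groups did not overlap. Fitted with edgeR over the sums of 478 host genes, the log2 fold change of Adult_D210 over Young_D30 was −2.12 (standard error 0.41), where the median host gene was at −0.32. This passed the limits used for a call (Benjamini-Hochberg adjusted p below 0.05 together with a log2 fold change past 1 in either direction), as did 14.6% of the host genes in the lower direction. The log2 fold change stayed between −2.48 and −1.62 when each library was left out, and the call held in all 6 of these fits.

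Among the single NECTIN3 circRNAs, circRNA11896 had 54, 44 and 94 reads in the Young_D30 libraries and 11, 11 and 7 in the Adult_D210 libraries. Its log2 fold change was −2.43 (standard error 0.47). The counts of circRNA11897 were 35, 51 and 52 in piglets and 8, 13 and 8 in adults. The fitted log2 fold change was −1.93 (standard error 0.49). Those of circRNA11895 were 14, 26 and 20 in piglets and 2, 3 and 1 in adults, and the fit gave −2.97 (standard error 0.73) on the log2 scale. In each of the 3 the highest adult library lay below the lowest piglet library, which in SRPBM was so for 23.5% of the 1341 circRNAs tested. All 3 tested NECTIN3 circRNAs were called lower in Adult_D210, against 4.85% of all circRNAs tested and 5.12% of the exonic ones. As the calls had a part in the choice of the host gene, nothing is read from this count. The shortest loop, circRNA11894, had 1, 0 and 4 reads in piglets and 0 in each adult library and was too low to be fitted.

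The calls of single NECTIN3 circRNAs depended on which library was left out. All 3 kept them without Young_D30 replicate 1, the library in which every exonic circRNA of the table has a read, and without Adult_D210 replicate 2. Without Young_D30 replicate 2 or Adult_D210 replicate 3, 1 was called, and without Young_D30 replicate 3 or Adult_D210 replicate 1, 0 were called, although the log2 fold changes of the 3 stayed between −3.40 and −1.57 in all 6 fits.

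The makeup of the NECTIN3 reads moved less than their sum. The share of circRNA11896 was 47.9% ± 10.1 (SD, n = 3) in Young_D30 and 45.6% ± 6.04 (SD, n = 3) in Adult_D210. That of circRNA11897 was 35.5% ± 5.99 and 45.4% ± 6.41 (SD, n = 3 each), and these shares overlapped between the groups. The share of circRNA11895 was 15.6% ± 5.19 in piglets and 8.96% ± 2.48 in adults (SD, n = 3 each). It was lower in every adult library than in every piglet library, on 1 to 3 adult reads per library. Such a shift of the share within the host gene, lower in every adult library, was seen for 9.86% of the 1034 circRNAs for which it could be computed. In reads, circRNA11896 exceeded circRNA11897 in Young_D30 replicates 1 and 3 and in Adult_D210 replicate 1, and was exceeded by it in the other 3 libraries.

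The scaffold DLG1 showed another picture, with a sum that did not part the ages. Its exonic reads were 102, 81 and 102 in the Young_D30 libraries and 164, 60 and 87 in the Adult_D210 libraries, and the groups overlapped. This was 15.4 ± 2.92 SRPBM (SD, n = 3) in Young_D30 and 14.7 ± 6.63 SRPBM (SD, n = 3) in Adult_D210, where Adult_D210 replicate 1 was high at 22.2 SRPBM. On the scale of back-splice totals with TMM normalisation the fitted log2 fold change was 0.64 (standard error 0.31) and was not called. Scaled by mapped reads, its sign turned, to −0.048 (standard error 0.49). In the same direction as the first value, 7.32% of the host genes were called higher.

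The DLG1 acceptor group gave most of these reads at either age, 223 in Young_D30 and 266 in Adult_D210, but its 3 loops differed. The 3-exon circRNA11717 had 12, 16 and 17 reads in piglets and 57, 27 and 35 in adults, so that every adult library lay above every piglet library in reads and in SRPBM. Groups parted in this direction in SRPBM for 3.73% of the circRNAs tested. Its log2 fold change was 1.66 (standard error 0.43), and it was the 1 DLG1 circRNA of 7 tested that was called, against 3.43% of all circRNAs and 3.46% of the exonic ones called higher. The call was lost without Young_D30 replicate 1 (log2 fold change 1.45), Young_D30 replicate 3 (1.87), Adult_D210 replicate 1 (1.63) or Adult_D210 replicate 3 (1.61), and on the scale of mapped reads (1.23), with its sign unchanged.

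The neighbouring loops from the same acceptor overlapped between the ages. For circRNA11718, with 1 exon more, the counts were 36, 32 and 43 in Young_D30 and 55, 17 and 24 in Adult_D210, and the log2 fold change was 0.024 (standard error 0.40). The shorter circRNA11716 had 19, 18 and 30 reads in Young_D30 and 36, 5 and 10 in Adult_D210, and the fit gave −0.20 (standard error 0.55) on the log2 scale. Neither was called, and in each Adult_D210 replicate 1 was the highest and replicate 2 the lowest of the 6 libraries.

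The ratio of 2 loops within a library does not depend on how libraries are scaled. Reads of circRNA11717 over those of circRNA11718 were 0.33, 0.50 and 0.40 in the Young_D30 libraries and 1.04, 1.59 and 1.46 in the Adult_D210 libraries. The mean was 0.41 ± 0.08 in piglets and 1.36 ± 0.29 in adults (SD, n = 3 each), and the groups did not overlap. As a share of all exonic DLG1 reads, circRNA11717 held 16.1% ± 4.03 in piglets and 40.0% ± 5.13 in adults, and circRNA11718 held 39.0% ± 3.46 and 29.8% ± 3.24 (SD, n = 3 each). DLG1 reads were led by circRNA11718 in all 3 piglet libraries and by circRNA11717 in all 3 adult libraries, in Adult_D210 replicate 1 by 57 reads to 55. A share higher in every adult library was found for 10.1% of the 1034 circRNAs for which it could be computed. The difference of 23.9 percentage points for circRNA11717 stood 59th among them, counted from the largest difference in favour of the adults.

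**Figure D3:**
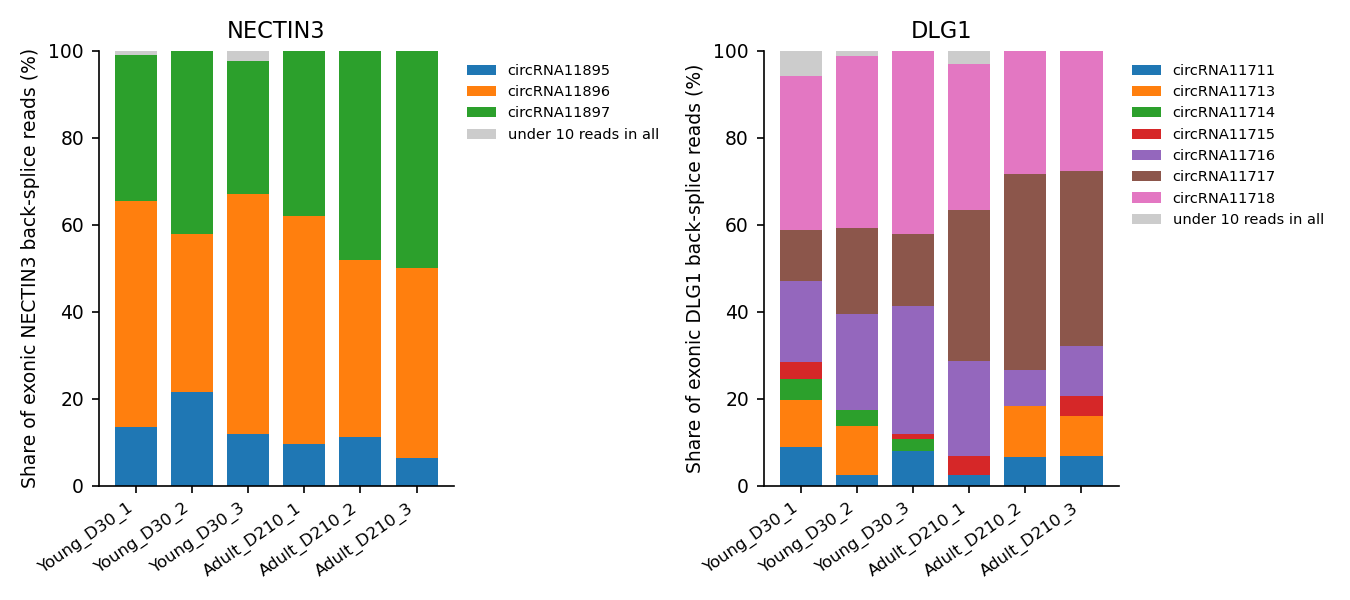
Share of the exonic back-splice reads of NECTIN3 (left) and DLG1 (right) held by each circRNA, in percent, with one bar per library. The part of circRNA11717 is larger in the 3 Adult_D210 bars (mean 40.0%) than in the 3 Young_D30 bars (mean 16.1%), while circRNA11896 and circRNA11897 share most of the NECTIN3 reads at either age.

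The DLG1 loops that end at the shared donor were low and irregular. Their reads together were 29, 14 and 12 in Young_D30 and 11, 11 and 18 in Adult_D210. The 7-exon circRNA11711 had 9, 2 and 8 reads in piglets and 4, 4 and 6 in adults. The counts of circRNA11713 were 11, 9 and 0 in piglets and 0, 7 and 8 in adults, so that 1 library of each group had no read. For circRNA11715 they were 4, 0 and 1 in piglets and 7, 0 and 4 in adults. None of these 3 was called, and their log2 fold changes of −0.077, 0.015 and 1.39 had standard errors of 0.81, 1.12 and 1.21. The fourth, circRNA11714, had 5, 3 and 3 reads in Young_D30 and 0 in every Adult_D210 library. All reads of circRNA11714 were in Young_D30, so it passed the filter through that group alone, and it was not called. With 3 reads set in each adult library, its Young_D30 mean would be 1.38-fold the adult mean in SRPBM. As the counting error of the piglet reads is left out, this is not a lower limit. A count of 0 in all 3 adult libraries was found for 38.9% of the 2552 exonic circRNAs, all of which have a read in Young_D30 replicate 1. This share was taken without the read filter, over circRNAs with a median of 9 reads, where circRNA11714 had 11. The share among circRNAs that passed the filter was not computed.

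**Figure D4:**
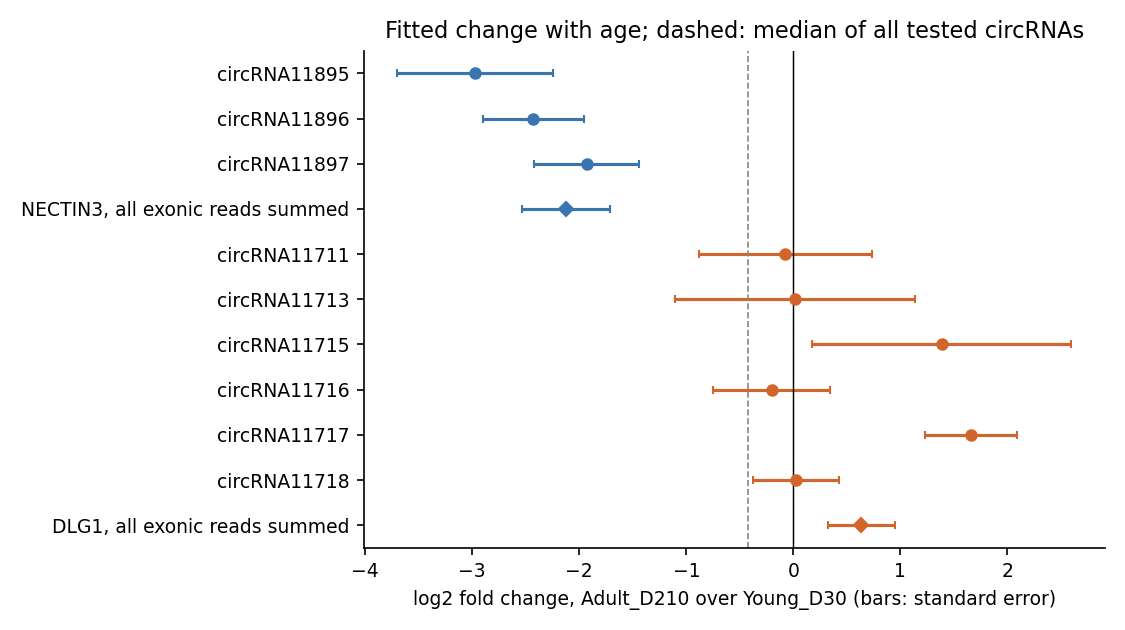
Fitted log2 fold change of Adult_D210 over Young_D30 with its standard error, for the tested NECTIN3 (blue) and DLG1 (orange) circRNAs (points) and for the summed exonic reads of each host gene (diamonds); circRNA11714 is left out because it has no adult read. The NECTIN3 values lie between −2.97 and −1.93, circRNA11717 lies at 1.66, and the dashed line is the median of the 1341 circRNAs tested, −0.42.

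Within each library the reads of the 2 host genes could be set against each other without any scaling. The ratio of NECTIN3 to DLG1 exonic reads was 1.02, 1.49 and 1.67 in the Young_D30 libraries and 0.128, 0.450 and 0.184 in the Adult_D210 libraries. NECTIN3 thus held 57.6% ± 6.32 of their joint reads in piglets and 19.3% ± 10.4 in adults (SD, n = 3 each), without overlap.

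The scale of the comparison affects every fold change given. Over the 1341 circRNAs tested, the median log2 fold change was −0.42 on the scale of back-splice totals with TMM normalisation and −0.90 when scaled by mapped reads. The calls were 46 higher and 65 lower on the first scale and 9 higher and 68 lower on the second. With back-splice totals but without TMM, the median was −0.28, with 55 calls higher and 59 lower. Relative to the median of the first scale, circRNA11896 lay at −2.01, circRNA11897 at −1.51, circRNA11895 at −2.55, circRNA11717 at 2.08 and circRNA11718 at 0.44. All 3 NECTIN3 circRNAs were called on either scale. Without Young_D30 replicate 1, the median over 1046 circRNAs was −0.051 on the first scale, with 38 calls higher and 36 lower. Every exonic circRNA of the table has a read in that library. How far the medians and the percentages of all circRNAs given as background depend on this was not tested.

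Other junction genes were read from a list of 108 genes of nectins and afadin, the cadherin-catenin complex, tight junctions, the polarity complexes and their actin partners. Circular RNAs in the table came from 17 of them, 8 with exonic and 10 with intronic ones. The exonic circRNAs of the table lie on chromosomes 13, 8, 7 and 12, and genes elsewhere could enter with intronic ones only. Afadin, AFDN, the actin linker of nectins, had 1 intronic circRNA with 1 read in this table. The paper names AFDN, beside NECTIN3, among the host genes of its differential circRNAs in the adhesion junction pathway. The paper further reports a CDC42 circRNA as lower in mature boars, and tight junctions among the enriched pathways of its differential circRNAs. CDC42 is on the list but had no circRNA in the table, so the counts given here do not bear on that result. From 5 genes, 18 circRNAs were tested, of which 1 was called higher and 0 lower (5.56%, against 8.28% of all circRNAs tested). Lower calls by DESeq2 and by edgeR's exact test also numbered 0, and at an unadjusted p below 0.05 with the same fold limit there were 3 by edgeR's quasi-likelihood test, 2 by DESeq2 and 2 by the exact test. The median log2 fold change of the 18 was −0.49, beside −0.42 for all tested. The called circRNA was circRNA12280 of BAIAP2, an adaptor protein of the actin cytoskeleton, with 18, 12 and 12 reads in Young_D30 and 106, 61 and 43 in Adult_D210 (log2 fold change 2.60 ± 0.38 as standard error, and an adjusted p of 0.000716 from edgeR). For a circRNA of this number the paper reports resistance to RNase R, and an RT-qPCR pattern between the ages that matched its sequencing. TIAM1, an activator of RAC1, had the most exonic reads on the list (615 from 27 circRNAs), followed by PRKCI (353), the atypical protein kinase C of the PAR complex, BAIAP2 (296), MAGI1 (123), a MAGUK scaffold like DLG1, and the tight junction adhesion molecule JAM2 (23). Apart from circRNA12280, no circRNA of these 5 genes was called. In simulated data the same fit called 17.5% of 4-fold and 45.9% of 8-fold changes, so a missing call does not show an unchanged level.

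Among the other 216 host genes with at least 100 exonic reads, those most like NECTIN3 over the 6 libraries, by Pearson's r of log2 CPM, were DYRK1A (r = 0.95), the host gene listed as ENSSSCG00000030362 (0.92) and the cyclin gene CCNI (0.91). The fitted log2 fold changes of their sums were −0.54, −1.54 and −1.49, each smaller in size than that of NECTIN3. Those most like DLG1 were USP53 (0.92), the centrosome gene CEP63 (0.88) and ARIH2 (0.88). The fitted log2 fold changes of these 3 sums were 1.12, 1.41 and 0.59, beside 0.64 for DLG1. As these r values rest on 6 libraries of 2 ages, any host gene that differs between the ages can reach a high one, and they are given as a description only.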

How the data were processed

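Back-splice reads of testis were measured in 3 Young_D30 and 3 Adult_D210 libraries, grouped and numbered by their titles. After adapter and quality trimming (Cutadapt), the authors aligned reads to the pig genome by TopHat2 (Sscrofa10.2 in the submitters' processing notes), found back-splices among unmapped reads by TopHat-Fusion and CIRCExplorer2, and deposited raw counts per circRNA. Beside each count stands the authors' SRPBM signal, from which mapped reads were recovered. The members, gene lists and tests were chosen with earlier results of these data known.

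CircRNAs with at least 10 reads were tested in R 4.3.3 with edgeR 4.0.16 (TMM on back-splice totals, robust quasi-likelihood F test, Benjamini-Hochberg over 1341 circRNAs); exonic counts summed per host gene were fitted likewise. The code was tested on simulated data. Standard errors came from the fold change and F. Shares and SD were computed in Python 3.11.15 with no test. Replicates differed by more than counting noise (chi-square over degrees of freedom 3.87 to 4.97). Of 482 host genes listed by Ensembl identifier, 284 were given a symbol from the gene name table. Circles with at least 10 reads are described singly, and likeness used host genes with at least 100 reads. Intervals and floors cover counting error only, since reads carry no molecular identifiers. DESeq2 1.42.0, other scalings, filters, the exact test, a replicate block and each library left out were alternatives.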

Additional observations from a re-analysis of the deposited data

How the results depend on the processing

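The 3 NECTIN3 circRNAs were called lower in Adult_D210 under DESeq2, without TMM, with mapped reads, with edgeR's exact test, without a filter, with at least 20 reads and in edgeR's older quasi-likelihood procedure, the last chosen after seeing the data. Leaving out each library gave 0 to 3 such calls, 0 to 1 DLG1 calls in the higher direction and 39 to 81 calls over all circRNAs. The DLG1 call was lost with mapped reads (0 calls). The summed DLG1 change turned to −0.048 with mapped reads, on which scale circRNA11713 was at −0.56 and circRNA11718 at −0.39. The uncalled circRNA11711 had a log2 fold change of 0.051 with DESeq2, 0.076 without TMM and 0.027 with at least 20 reads. With each library left out it ranged from −0.42 to 0.31, circRNA11713 from −0.61 to 0.83, circRNA11716 from −0.98 to 0.24 and circRNA11718 from −0.25 to 0.32. The cause of these changes was not tested.

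The sample titles do not say whether samples with the same replicate number share more than that number. The correlations of their deviations from the group means were 0.051, −0.015 and −0.031. With such low counts, values near 0 cannot show that nothing was shared. With a replicate block, 33 circRNAs were called in place of 111, 1 of NECTIN3 (circRNA11895) and 0 of DLG1, and circRNA11713 was at −0.039. Not every library deviated most with its own number. The DLG1 circRNAs circRNA11711, circRNA11713 and circRNA11715 had at most 11 reads in any library, and their log2 fold changes had standard errors of 0.81 to 1.21.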

Other observations

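On the junction list, circRNA11524 of PRKCI was singled out after its values were seen. It had 94, 0 and 71 reads in the Young_D30 libraries and 83, 0 and 55 in the Adult_D210 libraries, so that replicate 2 of each group had no read while every other library had at least 55. Its log2 fold change between the ages was 0.057 (standard error 1.56). The other tested PRKCI circRNA, circRNA11523, had 5, 3 and 12 reads in piglets and 17, 10 and 2 in adults, with a read in every library.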
